A study of Mus musculus with 12 samples.

Results

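The genes described here are 58 DNA damage response and repair genes of the mouse, sorted into 11 repair routes, and the measurement is whether a peak of histone H3 acetylated at lysine 36 (H3K36ac) was called within 3000 bp of the start of each gene. The 58 genes were taken by name from a RefSeq gene table of GRCm38.p6, which shares its coordinates with mm10, and they are 58 of the 21468 protein-coding genes of that table whose strand is known. A gene counted as called in a sample when any part of a peak of that sample lay in the window.

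The 6 samples were spermatogonia-enriched cells of mice of 1 inbred background, shared by both genotypes, at postnatal day 5, from 3 WT and 3 Sirt7-/- mice, numbered 2, 3 and 4 in each genotype, each from a different animal and each with 50000 cells of chromatin. The knockout is of the whole body, so the supporting cells of the testis lacked Sirt7 as well. Enrichment was by differential plating, in which somatic cells stick to the dish, and not by a sort, so other testis cells may remain. Each ChIP library was compared with its own input library when the authors called peaks, and no replicates were pooled.

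Acetylation of histone H3 at lysine 36 is a mark found around the starts of active genes, and SIRT7 is a nuclear, NAD-dependent deacylase that can remove it. DNA repair works through several routes. Double-strand breaks are sensed by ATM and by the MRE11-RAD50-NBN complex, marked by chromatin proteins such as MDC1 and RNF8, and sealed by homologous recombination or by non-homologous end joining, while damaged bases, mismatches and crosslinks each have a route of their own. Spermatogonia divide by mitosis and carry the genome that will pass to sperm, and the programmed breaks of meiosis come only later.

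Of the 58 genes, 19 (32.8%, exact 95% interval 21.0 to 46.3) had a peak in at least 1 Sirt7-/- sample, against 19.3% of all protein-coding starts. In at least 2 Sirt7-/- samples the repair genes were at the background, with 6 of 58 (10.3%) against 10.3% of all protein-coding starts. Both counts were lower without weak peaks: with −log10 q of at least 2 they were 13 and 1 (Lig3). At that cutoff the matching shares of all protein-coding starts were counted per sample only. Whether the repair genes fell more than the background was therefore not shown by these counts. At that cutoff the repair genes with a peak in Sirt7-/- 2, 3 and 4 numbered 9, 1 and 4, from 11, 5 and 10. The share of all protein-coding starts also fell, to 7.77%, 7.24% and 7.78% from 13.2%, 9.73% and 11.7%. Only Fancm had a peak in each of the 3 Sirt7-/- samples and none in WT, which is 1.72% of the 58 genes against a background of 2.45%. Mre11a and Lig3 were called in at least 1 WT sample, 3.45% against 5.12%. The other 39 genes had no peak in any of the 6 samples. With 17 of 58 genes (29.3%) called in at least 1 Sirt7-/- and no WT sample, the background for that pattern was 14.6%, and 13 of these 17 genes (76.5%) were called in a single Sirt7-/- sample, against 55.8% of the 3139 protein-coding starts with that pattern. All the intervals given here cover counting error only, and the repair genes were not tested as a set.

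Sequences are shown for Fancm, Lig3 and Mre11a because they are the 3 genes with a peak in the most samples (3 of 6 each), and for Fkbp3 because all 3 peaks counted for Fancm lie at its start (this one was chosen after its values were seen). Each is the 300 bases of the RefSeq promoter table on GRCm38.p6, 250 before the start and 50 after it, written 5′ to 3′ on the strand of the gene: chr12:65075353-65075652 (plus strand) for Fancm, chr11:82780859-82781158 (plus) for Lig3, chr9:14784404-14784703 (plus) for Mre11a and chr12:65073889-65074188 (minus) for Fkbp3. Capitals mark matches to the GC box GGGCGG and the CCAAT box CCAAT, on either strand.
Fancm: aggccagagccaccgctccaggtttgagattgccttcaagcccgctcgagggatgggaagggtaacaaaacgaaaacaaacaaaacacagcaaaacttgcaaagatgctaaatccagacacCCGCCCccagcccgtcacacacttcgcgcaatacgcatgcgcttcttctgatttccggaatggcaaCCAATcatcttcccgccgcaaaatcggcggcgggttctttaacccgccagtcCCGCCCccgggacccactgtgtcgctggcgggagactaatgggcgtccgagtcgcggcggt
Lig3: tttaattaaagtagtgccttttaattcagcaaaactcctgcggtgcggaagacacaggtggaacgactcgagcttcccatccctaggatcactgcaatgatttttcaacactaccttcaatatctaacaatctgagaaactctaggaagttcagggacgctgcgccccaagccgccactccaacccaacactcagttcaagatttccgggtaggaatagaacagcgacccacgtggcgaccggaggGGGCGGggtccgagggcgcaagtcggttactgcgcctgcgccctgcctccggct
Mre11a: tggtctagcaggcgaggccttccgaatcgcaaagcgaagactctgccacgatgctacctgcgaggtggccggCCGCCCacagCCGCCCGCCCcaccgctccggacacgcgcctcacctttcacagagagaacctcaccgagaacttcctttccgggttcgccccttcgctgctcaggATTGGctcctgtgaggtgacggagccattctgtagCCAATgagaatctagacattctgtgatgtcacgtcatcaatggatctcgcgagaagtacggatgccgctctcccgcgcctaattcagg
Fkbp3: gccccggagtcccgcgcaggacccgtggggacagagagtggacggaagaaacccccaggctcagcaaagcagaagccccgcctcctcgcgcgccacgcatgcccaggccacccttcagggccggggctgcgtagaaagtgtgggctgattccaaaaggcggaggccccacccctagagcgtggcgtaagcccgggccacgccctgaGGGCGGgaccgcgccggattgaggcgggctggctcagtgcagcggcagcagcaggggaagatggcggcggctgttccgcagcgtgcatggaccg
Mre11a carried 3 GC box matches, of which a pair overlapped, and 2 CCAAT matches, Fancm 2 GC boxes and 1 CCAAT, and Lig3 and Fkbp3 1 GC box each. The Mre11a stretch is wholly covered by the Sirt7-/- 4 peak, and the other Mre11a peaks lay at or beyond its last base, inside the gene. The Fancm stretch overlapped none of the peaks.

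The lists themselves differed in size by genotype, and this moves with every count above. They held 2840, 2045 and 2591 peaks in Sirt7-/- 2, 3 and 4 and 906, 64 and 294 in WT 2, 3 and 4, and WT 3 stood apart with the shortest. All protein-coding starts had a peak in 13.2%, 9.73% and 11.7% of cases in Sirt7-/- 2, 3 and 4 and in 4.38%, 0.317% and 1.35% in WT 2, 3 and 4. The means were 11.6 ± 1.74% and 2.02 ± 2.11% (SD, n = 3 each), and no value overlapped between genotypes, but an exact permutation test over the 20 assignments can reach no p below 0.1, two-sided, which is the value found. Whether the gap came from the chromatin or from how well each immunoprecipitation worked cannot be told apart in peak lists, since they hold no read coverage, and spike-in nucleosomes were added but, as the study's methods describe their barcode counts as similar between samples, no factor was applied. A gene without a called peak may therefore still carry the mark. The deletion of Sirt7 could not be checked in these lists. Against the 19.3% of all protein-coding starts, 5 of 10 spermatogonial marker genes had a peak, each in a single Sirt7-/- sample: Zbtb16, Gfra1 and Uchl1 in Sirt7-/- 2, and Etv5 and Dazl in Sirt7-/- 4. Of other testis cells, 2 of 6 Sertoli markers (Sox9, Dhh), 1 of 6 Leydig markers (Nr5a1) and 0 of 4 peritubular myoid markers had one, also in single Sirt7-/- samples, and no marker of any of these cells was called in WT. Their part in the results was not tested.

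**Figure D1:**
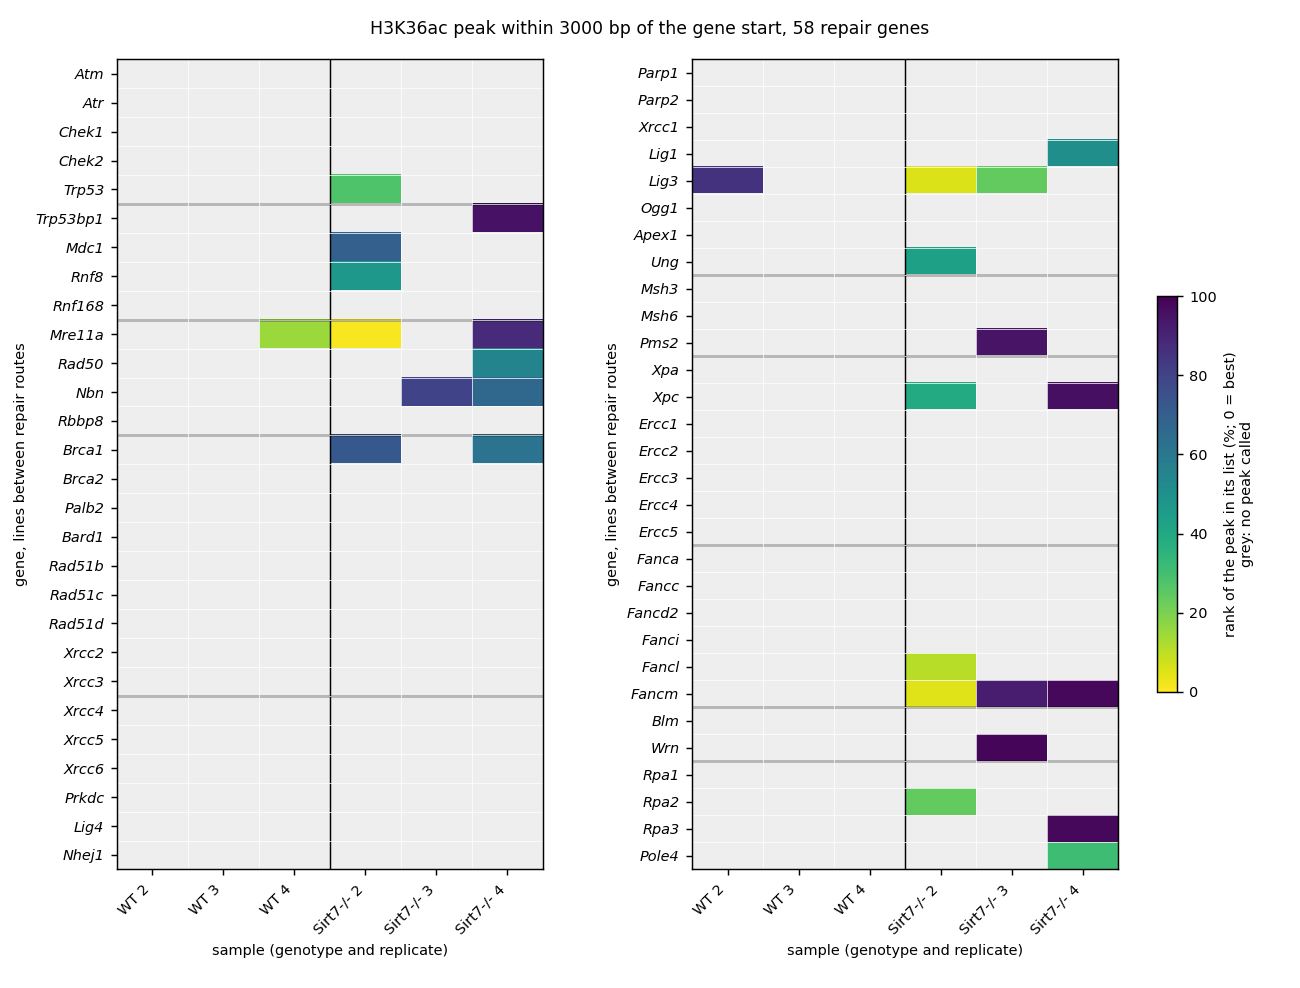
Each row is 1 of the 58 repair genes, grouped by route between the horizontal black lines, and each column is 1 sample. Coloured cells are called peaks, coloured by rank in the peak list of that sample (0% is the best −log10 q), and grey cells have no peak. The WT columns hold 2 coloured cells in all and the Sirt7-/- columns 26.

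Sirt7-/- 2 had a peak at 11 of the 58 genes (19.0%, interval 9.87 to 31.4), Sirt7-/- 3 at 5 (8.62%, 2.86 to 19.0) and Sirt7-/- 4 at 10 (17.2%, 8.59 to 29.4). WT 2 and WT 4 each had a peak at 1 gene (1.72%, 0.0436 to 9.24), and WT 3 at 0 of 58, which allows a share of up to 5.17% by the limit of 3 counts and 6.16% by the exact interval. The means were 8.67 ± 3.21 genes in Sirt7-/- and 0.667 ± 0.577 in WT (SD, n = 3), a difference of 8 genes, and the groups did not overlap. Divided by the share of all protein-coding starts in the same list, the repair genes stood at 1.44, 0.886 and 1.47 in Sirt7-/- 2, 3 and 4 and at 0.394, 0 and 1.28 in WT 2, 3 and 4. These ratios overlapped between genotypes, with means of 1.26 ± 0.328 and 0.557 ± 0.654. No gene of the whole table passed a two-sided Fisher's exact test of called against not called over the samples (Benjamini-Hochberg adjusted over all 21468 starts, smallest adjusted p = 1). With 3 samples against 3 the smallest unadjusted p is 0.1, which 525 starts had, so 0 starts had an unadjusted p under 0.05.

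**Figure D2:**
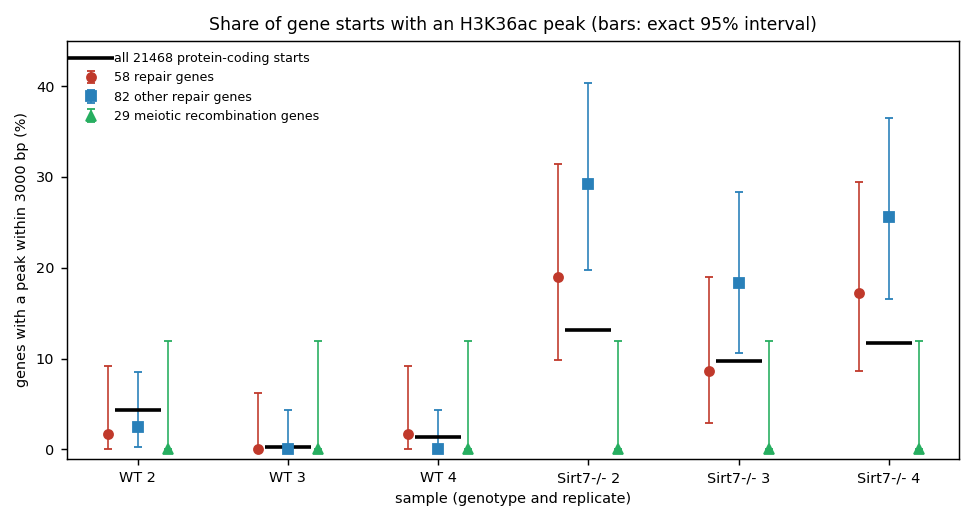
Points are the share of genes with a peak within 3000 bp (%) in each sample for the 58 repair genes, 82 other repair genes and 29 meiotic recombination genes, with exact 95% intervals as error bars, and black lines are all 21468 protein-coding starts. The 58 genes have a black line inside their interval in all 6 samples.

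By route, shares of a few genes are read against the 19.3% of all protein-coding starts called in at least 1 Sirt7-/- sample, and none was tested. Of 5 checkpoint genes 1 (20.0%) was called, close to that background. This was Trp53, which encodes the transcription factor p53, in Sirt7-/- 2, with a peak of 284 bp ranked 786 of 2840 and centred 302.5 bp into the gene, with the start of Wrap53 98 bp away on the other strand. The kinases Atm, Atr, Chek1 and Chek2 had none. Of 4 genes for the chromatin around a break, 3 had a peak in a single sample. Trp53bp1, whose product steers breaks towards end joining, had one in Sirt7-/- 4 (463 bp, rank 2461 of 2591), though its start in the promoter table lies 24947 bp away and had none. Single calls were also found at Rnf8, a ubiquitin ligase at breaks, in Sirt7-/- 2 (225 bp, rank 1328) and Mdc1, a scaffold that binds phosphorylated H2AX, in Sirt7-/- 2 (1037 bp, rank 1969). Rnf8 shares its start and strand with Gm28043, a long non-coding RNA gene, so its peak cannot be given to Rnf8 alone. The Mdc1 peak only just entered the window: its near edge lay 2876 bp upstream of Mdc1, and its midpoint 200 bp inside Tubb5, which encodes a tubulin. Rnf168, the partner ligase of Rnf8, had no peak.

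End resection had 3 of 4 genes (75.0%) called in at least 1 Sirt7-/- sample, against 19.3% of all protein-coding starts. The genes for the chromatin around a break and those for single-strand binding and replication had the same share. Mre11a (chr9:14784654-14837125, plus strand) encodes the nuclease of the complex that starts resection, and it was called in Sirt7-/- 2, Sirt7-/- 4 and WT 4 but not in Sirt7-/- 3, WT 2 or WT 3. The Sirt7-/- 2 peak (14784703 to 14784977) was 275 bp wide, ranked 23 of 2840 and had 6.62-fold enrichment over input. The WT 4 peak (14784738 to 14784939) was 202 bp wide, ranked 44 of 294 and was 5.34-fold over input. These peaks overlapped, with midpoints 186 and 184.5 bp into the gene, so at this gene a WT peak had the same place as a Sirt7-/- one. The Sirt7-/- 4 peak (14784295 to 14784911) was weaker in its list, at rank 2285 of 2591 and 3.58-fold, 617 bp wide, and it spanned the 81 bp between Mre11a and the start of Ankrd49 on the other strand. The partners in the complex were called in Sirt7-/- only: Rad50, which bridges the broken ends, in Sirt7-/- 4 (248 bp, rank 1420), and Nbn, which links the complex to ATM, in Sirt7-/- 3 (325 bp, rank 1632 of 2045) and Sirt7-/- 4 (597 bp, rank 1730 of 2591). The Nbn peaks overlapped each other, centred 703 and 737 bp into the gene. Rbbp8 (CtIP), the cofactor of the nuclease, had no peak near its start, but had one inside the gene in Sirt7-/- 2 and in Sirt7-/- 4.

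Of 9 homologous recombination genes only Brca1 (11.1%, against 19.3% of all protein-coding starts) was called, in Sirt7-/- 2 (2011 bp, rank 2061) and Sirt7-/- 4 (1018 bp, rank 1608). The Sirt7-/- 2 peak ran from 101551417 to 101553427 on chromosome 11 and was the widest at any of the 58 genes. It spanned the start of Brca1 (101551955) and that of Nbr1, an autophagy receptor gene that begins 152 bp away on the other strand, and its midpoint was 315 bp inside Nbr1. The Sirt7-/- 4 peak, from 101552128 to 101553145, lay wholly outside Brca1, with its midpoint 529.5 bp inside Nbr1. Brca2, its partner Palb2, Bard1, which pairs with BRCA1, and Rad51b, Rad51c, Rad51d, Xrcc2 and Xrcc3 had no peak in any sample. The 6 genes of non-homologous end joining had none either: Xrcc5 and Xrcc6, which encode the Ku proteins, Prkdc, Xrcc4, Lig4 and Nhej1. With routes of 9 and 6 genes, a difference from the 19.3% background is not detectable from such counts.

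Of 8 base excision and single-strand break repair genes, 3 (37.5%) were called in at least 1 Sirt7-/- sample, against 19.3% of all protein-coding starts. Lig3 (chr11:82781109-82804274, plus strand) encodes the ligase that seals nicks with XRCC1, and it had peaks in Sirt7-/- 2, Sirt7-/- 3 and WT 2 but not in Sirt7-/- 4, WT 3 or WT 4. The Sirt7-/- 2 peak (82781167 to 82781872) was 706 bp wide, ranked 154 of 2840 and 5.66-fold over input. The Sirt7-/- 3 peak (82781133 to 82781820) was 688 bp wide, ranked 494 of 2045 and 5.34-fold. The WT 2 peak (82781161 to 82781529) began at nearly the same base but was 369 bp wide, ranked 773 of 906 and 4.03-fold. All 3 lay inside Lig3, with midpoints 410.5, 367.5 and 236 bp from its start. Folds belong to their own list and were not compared between samples. Lig1, the replicative ligase, was called in Sirt7-/- 4 by a peak nearer to Zswim9 (321 bp, rank 1305), and Ung, which removes uracil, in Sirt7-/- 2 by a peak 2518.5 bp upstream (552 bp, rank 1223). Parp1, Parp2, Xrcc1, Ogg1 and Apex1 had none.

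The remaining routes gave mostly single calls. Their shares are read against the same 19.3% of all protein-coding starts, and none was tested. Of 3 mismatch repair genes 1 (33.3%), Pms2, was called, in Sirt7-/- 3 (760 bp, rank 1934 of 2045), while Msh3 and Msh6 were not. Of 7 nucleotide excision repair genes 1 (14.3%) was called. This was Xpc, the damage sensor, in Sirt7-/- 2 (848 bp, rank 1108) and Sirt7-/- 4 (656 bp, rank 2488). Xpa, Ercc1, Ercc2, Ercc3, Ercc4 and Ercc5 were not called. Of 2 RecQ helicase genes 1 (50.0%), Wrn, was called, in Sirt7-/- 3 (221 bp, rank 2021 of 2045), and Blm was not. Of 4 genes for single-strand binding and replication, 3 (75.0%) were called. Rpa2 had a peak in Sirt7-/- 2 (325 bp, rank 685). Rpa3 (859 bp, rank 2536) and Pole4, a small subunit of DNA polymerase epsilon (279 bp, rank 802), had one in Sirt7-/- 4. Rpa1, the large subunit of the same single-strand binding complex, had no peak.

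Of 6 Fanconi anaemia genes, whose products repair crosslinks between strands, 2 (33.3%) were called, against 19.3% of all protein-coding starts. These were Fancl and Fancm, while Fanca, Fancc, Fancd2 and Fanci were not called. Fancl, the ubiquitin ligase of the pathway, had a peak in Sirt7-/- 2 (268 bp, rank 306 of 2840) centred 223.5 bp into the gene. Fancm (start chr12:65074110, plus strand), the helicase-like protein that anchors the complex to DNA, had peaks in Sirt7-/- 2 (65073422 to 65073911, 490 bp, rank 134 of 2840, 5.68-fold), in Sirt7-/- 3 (65073465 to 65073887, 423 bp, rank 1885 of 2045, 4.07-fold) and in Sirt7-/- 4 (65073523 to 65073757, 235 bp, rank 2532 of 2591, 3.53-fold). The peaks were high in the list in Sirt7-/- 2 and near its end in the other two. All of them lay outside Fancm. Fkbp3, which encodes a prolyl isomerase, starts 172 bp away at 65073938 on the other strand, and the peaks were centred 271.5, 262 and 298 bp inside it. The promoter table places the start of Fancm 1493 bp further into the gene, at 65075603. Fancc had no peak at its gene table start, but its promoter table start, 65547 bp away at chr13:63431745, lay in a 472 bp peak of Sirt7-/- 2 (63431423 to 63431894).

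**Figure D3:**
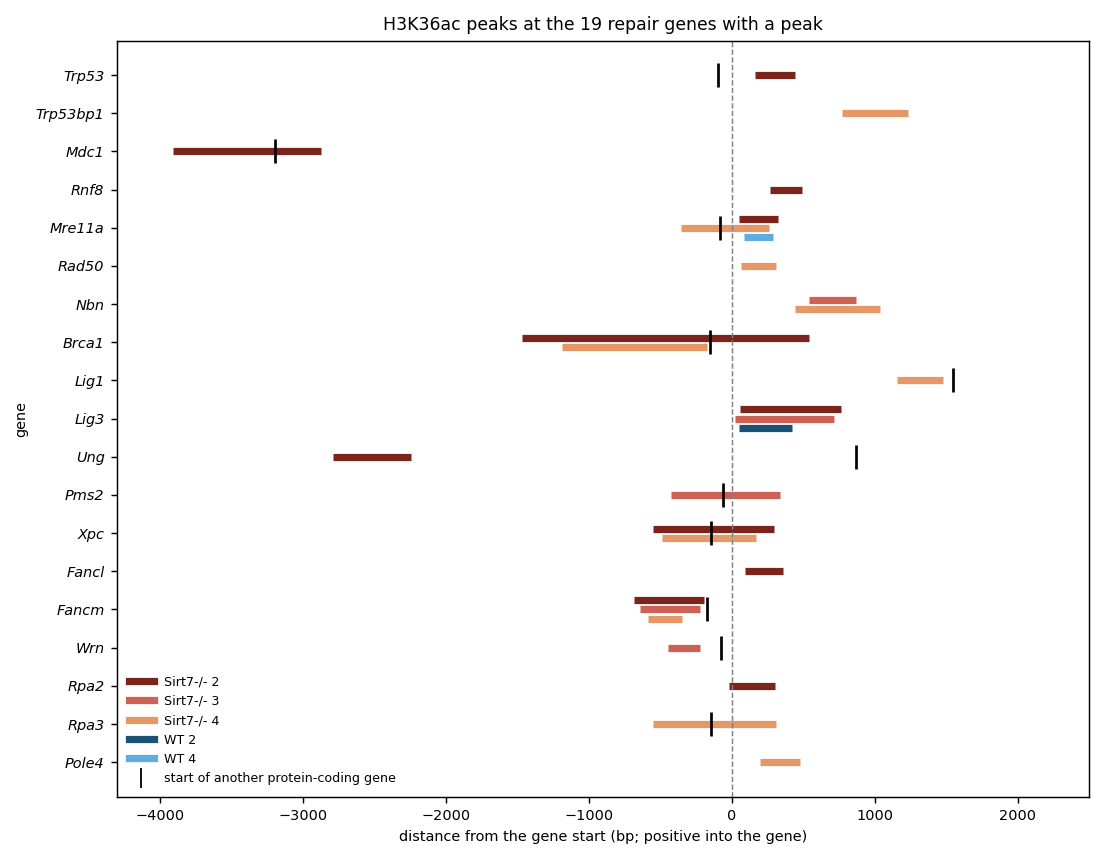
Bars are the peaks at the 19 repair genes with a call, drawn from edge to edge by distance from the gene start (bp, positive into the gene) and coloured by sample, and black ticks are starts of other protein-coding genes. The 3 Fancm bars lie left of 0, beyond the tick of Fkbp3, and the Lig3 and Nbn bars lie right of 0.

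Fancm was not alone in this. The 19 called genes gave 26 peaks over the 3 Sirt7-/- samples, counting each gene in each sample, and in 13 of these (50.0%) the gene's own start was the nearest protein-coding start to the midpoint, against 85.5% for all protein-coding genes with a peak. In the other 13 the nearest start belonged to a neighbour on the opposite strand. Each of these 13 peaks overlapped the neighbour, 7 overlapped the repair gene as well, and 9 had midpoints downstream of the neighbour's start, up to 529.5 bp, while 4 lay at most 30 bp upstream of it. Besides Fancm, Brca1, Mdc1, Lig1 and the Sirt7-/- 4 peak at Mre11a, these were Xpc with Lsm3, whose start was 17.5 and 12.5 bp from the midpoints, Pms2 with Aimp2 (15.5 bp), Rpa3 with Umad1 (24 bp) and Wrn with Purg (260 bp). Trp53, Trp53bp1, Rnf8, Rad50, Nbn, Lig3, Ung, Fancl, Rpa2 and Pole4 had their own start nearest, among protein-coding starts, in every peak. The Ung peak nevertheless lay outside Ung and wholly inside Alkbh2, a gene on the other strand. Where a peak is centred between divergent starts lying close together, the list cannot say which gene it belongs to.

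Counting only genes whose own start was nearest, 11 of 58 repair genes (19.0%, interval 9.87 to 31.4) had a peak in at least 1 Sirt7-/- sample, against 16.9% of all protein-coding starts counted in the same way. The 58 genes more often have a near neighbour: 25 of them (43.1%) had another protein-coding start within 1000 bp, against 11.3% of all. Among genes with such a neighbour, 3 of 14 peaks (21.4%) at repair genes had the own start nearest, against 50.6% of 1843 for all protein-coding genes, and among genes without one 10 of 12 (83.3%) against 97.0% of 5600. Midpoints fell downstream of the start in 2 of 14 (14.3%) against 51.5%, and in 11 of 12 (91.7%) against 86.1%. The peaks of 1 gene in several samples and of neighbouring genes are not independent, and these shares were not tested. Counting starts of any gene type, 11 of the 29 repair genes that share a start region (37.9%) were called in at least 1 Sirt7-/- sample, close to 36.1% of all such protein-coding genes, and 8 of the other 29 (27.6%) against 15.4%. These 8 genes include Mdc1 and Lig1, whose peaks lay nearer to the starts of Tubb5 and Zswim9. The shares by shared start region were not tested either.

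**Figure D4:**
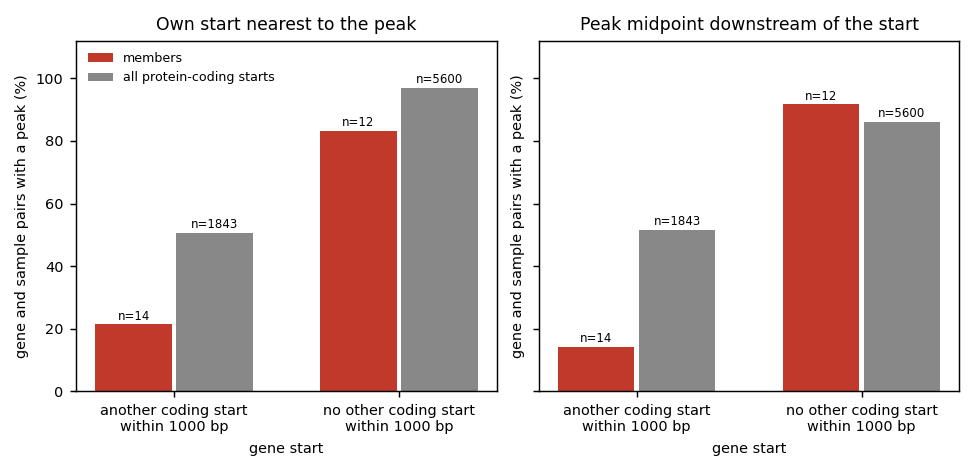
Bars start at 0 and give, for peaks of the 3 Sirt7-/- samples, the share (%) with the own start nearest (left) and with the midpoint downstream of the start (right), for repair genes (red) and all protein-coding starts (grey), split by whether another protein-coding start lies within 1000 bp. With such a neighbour, red stands at 21.4% and 14.3% and grey at 50.6% and 51.5%.

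The rank of the peaks at repair genes differed between lists, better than the background in Sirt7-/- 2 and worse in Sirt7-/- 3 and 4. Their median width was 490, 423 and 530 bp in Sirt7-/- 2, 3 and 4, against 501, 460 and 474.5 bp for all protein-coding genes with a peak. Their median rank, as a percentage of the list where 0 is the best, was 27.7% in Sirt7-/- 2 but 92.2% in Sirt7-/- 3 and 77.5% in Sirt7-/- 4, against 47.9%, 50.0% and 47.8%. With 11, 5 and 10 peaks behind these medians, the Sirt7-/- samples did not share a direction.

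At the gene table starts, the 39 genes without a call were not near misses of the window. Their nearest peak in any of the 6 samples lay between 15510 bp (Ercc1) and 2905032 bp (Bard1) from that start. The median was 92973 bp, with 0 genes within 10000 bp and 18 farther than 100000 bp. Fancc counts among the 39, although its promoter table start lay in a peak of Sirt7-/- 2.

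Promoter sequences were compared at the starts of the promoter table, while peaks were counted at those of the gene table. Fancc thus counts as without a peak and Trp53bp1 as with one, although the promoter table start lies in a peak at Fancc and has none at Trp53bp1, and no difference was tested. Over the 48 repair genes in the promoter table, the median ratio of observed to expected CpG was 0.883, against 0.577 over 17492 protein-coding promoters, and it was 0.833 in the 15 genes with a peak and 0.909 in the 33 without. Matches on either strand within 300 bases were found for the GC box in 66.7% of repair promoters against 46.3% of all, for CCAAT in 58.3% against 39.2%, for the ETS motif CCGGAAG in 27.1% against 11.9%, for the E2F motifs TTTGGCGC or TTTCCCGC in 18.8% against 2.10%, and for TATAAA in 6.25% against 13.3%. The GC box was found in 66.7% of the promoters both with and without a peak, and the E2F motifs in 13.3% and 21.2%. These are matches of letters and not shown to be bound.

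A wider list of 82 other repair genes had a peak at 24, 15 and 21 genes in Sirt7-/- 2, 3 and 4 and at 2, 0 and 0 in WT 2, 3 and 4. Of these, 35 (42.7%) were called in at least 1 and 16 (19.5%) in at least 2 Sirt7-/- samples, and 7 (8.54%) in all 3 and no WT sample, against the backgrounds of 19.3%, 10.3% and 2.45%. The 7 were Rad17, Aptx, Usp1, Rev3l, Ube2n, Ube2v2 and Dclre1a, and Rad23b and Rmi1 had a peak in each Sirt7-/- sample and in WT 2 (these names were chosen after their values were seen). None of the 82 was called in 5 or more samples. The 82 genes were not tested as a set, and their counts were not repeated without weak peaks or with nearest starts only. The 29 meiotic recombination genes, which act after the stage sampled, had 0 peaks in each of the 6 samples. This allows a share of up to 10.3% by the limit of 3 counts and 11.9% by the exact interval. The background was 13.2%, 9.73% and 11.7% in Sirt7-/- 2, 3 and 4 and 4.38%, 0.317% and 1.35% in WT 2, 3 and 4. It was 19.3% for at least 1 Sirt7-/- sample, and the meiotic genes were not tested against it.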

How the data were processed

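H3K36ac ChIP-seq peaks of 3 WT and 3 Sirt7-/- samples were used, grouped by the sample labels. Per the study's methods and the submitters' processing notes, the authors checked reads with FastQC 0.12.1, used Trim Galore 0.6.6 for trimming, Bowtie2 2.4.4.1 for alignment to mm10 and SAMtools 1.19.2 for filtering, and ran MACS2 2.2.5 in broad mode on each sample with its input. In the deposited lists each peak has a position, a score, a ratio (fold over input) and −log10 p and q values. The score repeats the −log10 q in whole numbers and entered no result. Lists were ranked by −log10 q. The study gives read numbers before duplicate removal (not used here), and numbers after filtering are not given in the sources used here, so a call has no known precision.

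Gene positions came from the RefSeq table of GRCm38.p6, with 1 start per gene, and strand from the RefSeq promoter table (17492 protein-coding genes, 48 of the 58) or, by symbol, from GENCODE vM39 (3976 and 10), whose coordinates were not used. Where several peaks lay in a window, the nearest to the start was described. The genes and lists were chosen with earlier results of these data known. All 58 genes are accounted for, with positions in full for those called in a WT sample or in all 3 Sirt7-/- samples. Sequences follow the 3 genes called in the most samples. Group means of protein-coding shares were compared by an exact permutation test, single genes by Fisher's exact test, two-sided, and intervals are exact (Clopper-Pearson, 95%). Alternatives changed the window (1000 bp), the peak point, the −log10 q and p minimum, the list size, shared starts, the start table, the gene a peak was given to, the replicate block and each sample left out. The calling code was run on simulated peaks, planted inside or outside the window of genes far from any other protein-coding start. Calls matched the planting in 100% of 2400 gene and sample pairs. This checks the code only, and does not cover genes with near neighbours. The work used SciPy 1.17.1, NumPy 2.4.6, pandas 2.3.3 and matplotlib 3.10.9 under Python 3.11.15.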

Additional observations from a re-analysis of the deposited data

How the results depend on the processing

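Of 16 alternatives, those that shortened the lists or dealt with shared starts moved the counts of repair genes, and the cause was not tested. The difference of 8 genes between the Sirt7-/- and WT means fell to 4.33 with −log10 q of at least 2, 3.67 with a common −log10 p minimum of 5.99, 0 with the 64 best peaks of each list and 0.5 with the 294 best without WT 3. It was 3 without genes that share a start within 1000 bp and 3.67 when a peak was given to its nearest protein-coding start only, a choice made after seeing the data. The count of 1 gene in all 3 Sirt7-/- and no WT sample became 0 in each of these 6 settings. The count of 2 genes in WT became 1 under both minimums and with the 64 and 294 best peaks (Mre11a in each), and 0 without shared starts. The 19 genes in at least 1 Sirt7-/- sample became 13 with −log10 q of at least 2, 11 with the −log10 p minimum, 1 and 3 with the 64 and 294 best peaks, 8 of 29 without shared starts and 11 with nearest starts only, and the 6 in at least 2 became 1, 1, 0, 0, 1 and 2. For the shortened lists, the matching shares of all protein-coding starts were counted per sample only. The mean ratio to the background became 2.02 in Sirt7-/- and 1.76 in WT with the 64 best peaks, where only Mre11a was left, and 0.723 in Sirt7-/- with nearest starts only. The median width averaged over Sirt7-/- samples, 481 bp, became 275 bp with the 64 best peaks, 324 bp without shared starts and 387 bp with nearest starts only, and the median midpoint moved from 53.6 to 431 bp with nearest starts only. The difference over all protein-coding starts, 9.54 percentage points, was −0.0264 (exact permutation p = 0.2) with the 64 best peaks, 0.0792 (p = 0.2) with the 294 best, settings that fix the list size, and 4.98 (p = 0.1) with the −log10 p minimum. Starts of the promoter table, also added after seeing the data, lost Trp53bp1 and gained Fancc, so 19 genes stayed 19.

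Leaving out each sample in turn gave a difference of 6.83 to 9.83 genes, ratios of 1.16 to 1.45 in Sirt7-/- and 0.197 to 0.835 in WT, widths of 456.5 to 510 bp, midpoints of 10.4 to 103.6 bp, 1 to 2 genes in WT and a protein-coding difference of 8.69 to 10.7 points. The genes in all the Sirt7-/- samples and no WT sample numbered 1 to 3, with 2 (Fancm, Nbn) without Sirt7-/- 2 and 3 (Brca1, Fancm, Xpc) without Sirt7-/- 3. The 1 gene in WT was Mre11a without WT 2 and Lig3 without WT 4. With the replicate number as a block, the protein-coding difference of 9.54 points had an exact permutation p of 0.25, the smallest of 8 assignments. The numbers name different mice, and the labels do not say whether samples with the same number were prepared together. Deviations of samples with the same number correlated at −0.042, −0.0716 and 0.0109, which with 3 samples per genotype cannot decide it. List sizes fell in the order 2, 4 and 3 in both genotypes (2840, 2591 and 2045 peaks in Sirt7-/-, 906, 294 and 64 in WT). Pairing by number was not tested further. Fisher's test, run under every alternative but the block, called 0 starts in each, which the smallest p of the design fixes and which says nothing about stability.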
